A study of Mus musculus with 768 samples.

Results

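The 45 genes described here carry a cell through division: 21 mitotic genes, 16 replication genes, 5 G1 genes and 3 inhibitor genes. They were taken by symbol, and all 45 were found in both count tables among 51734 features. Single endothelial cells of mice had been sorted into 8 plates of 96 wells and sequenced with Smart-seq2, which reads whole transcripts without molecular identifiers. TU_HEV cells were CD45-CD31+MECA79+ cells of PyMT tumours (plates pool3 and pool4), TU_EC cells were CD45-CD31+MECA79- cells of PyMT tumours (poolA to poolD), and LN_HEV cells were CD45-CD31+MECA79+ cells of lymph node (pool1 and pool2). PyMT tumours are mammary tumours driven by the polyoma middle T antigen, and MECA79 is an antibody to the sulfated glycans of high endothelial venules (HEVs), the vessels through which lymphocytes enter lymph nodes. The labels name no animal, age, strain or treatment, so each group is 1 sample, plates are not replicates, and no test between groups was made.

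A dividing cell moves through G1, S, G2 and M phase. D-type cyclins with Cdk4 act in G1 and free the E2F factors from the retinoblastoma protein, and E2F factors then switch on the genes of DNA replication. The mitotic genes are switched on later, and their promoters often carry a cell cycle homology region (CHR) element bound by the DREAM and MuvB complexes beside CCAAT boxes bound by NF-Y. Cdkn1a (p21), Cdkn1b (p27) and Cdkn1c (p57) bind and inhibit cyclin-dependent kinases. Most endothelial cells of adult vessels rest outside the cycle, and tumour vessels hold more dividing ones.

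After filters on reads and cell type, 50 and 48 TU_HEV cells (pool3 and pool4), 68, 81, 82 and 72 TU_EC cells (poolA to poolD) and 63 and 80 LN_HEV cells (pool1 and pool2) remained. The groups had 146215450, 221773977 and 144085963 counts in all, in the order TU_HEV, TU_EC and LN_HEV, and medians of 1431389, 625611 and 1056419 counts per cell. All 5 pan-endothelial markers stood above 10 CPM (a gene's part of all counts of a group, plate or cell, on the usual scale of that unit) in every group, and the summed level of the 6 leukocyte markers was 2.93, 1.48 and 16.6 CPM in TU_HEV, TU_EC and LN_HEV. Chst4, the HEV sulfotransferase, had 206.98 CPM in TU_HEV, 0 in TU_EC and 1118 CPM in LN_HEV. Libraries of pool1 to pool4 stand in 1 table and those of poolA to poolD in another, so the table a library stands in and the TU_EC gate cannot be told apart. The 11 libraries left out of pool1 held over 99% of the counts of 19 TU_HEV libraries. For S32, 1 of these 11, this ran both ways, as the TU_HEV library S320 of pool4 held 99.5% of the counts of S32. The pool1 libraries S26, S29 and S33 also held over 99% of the counts of 1 TU_HEV library each and were kept, and values without them are given with the processing alternatives.

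Promoter sequences of 2 mitotic and 2 replication genes are shown because the lists differ in promoter letters and also differed across cells. In the RefSeq promoter windows (250 bases before to 50 after the start, build GRCm38.p6), each sequence is written 5′ to 3′ on the strand of its gene. Capitals mark the letters searched for on both strands. The CHR element was taken as TTTGAA, and the second form of it that is known from mitotic promoters, which has TTCGAA, was counted with it. The CCAAT box was searched by its name as spelled, and reads ATTGG on the other strand. The E2F site was taken as TTTGGCGC, TTTCGCGC, TTTCCCGC, TTTGCCGC or TTTGGCGG. Ccnb2 encodes cyclin B2, and Cdk1 the kinase that it activates for entry into mitosis. Mcm6 is a subunit of the replicative helicase, and Cdt1 loads that helicase onto DNA. The windows lie at chr9:70421505-70421804 (minus strand) for Ccnb2, chr10:69352863-69353162 (minus) for Cdk1, chr1:128359656-128359955 (minus) for Mcm6 and chr8:122567765-122568064 (plus) for Cdt1.
Ccnb2: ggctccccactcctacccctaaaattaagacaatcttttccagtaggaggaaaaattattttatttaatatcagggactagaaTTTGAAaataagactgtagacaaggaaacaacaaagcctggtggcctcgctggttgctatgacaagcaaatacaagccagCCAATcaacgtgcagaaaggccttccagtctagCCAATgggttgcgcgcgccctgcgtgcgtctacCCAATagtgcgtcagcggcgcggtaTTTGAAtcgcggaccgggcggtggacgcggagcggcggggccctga
Cdk1: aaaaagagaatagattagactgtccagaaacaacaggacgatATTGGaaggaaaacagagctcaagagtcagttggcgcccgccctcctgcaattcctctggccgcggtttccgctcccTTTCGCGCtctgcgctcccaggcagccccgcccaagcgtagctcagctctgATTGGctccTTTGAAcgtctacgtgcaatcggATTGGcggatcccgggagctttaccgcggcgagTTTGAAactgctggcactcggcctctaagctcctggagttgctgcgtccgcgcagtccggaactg
Mcm6: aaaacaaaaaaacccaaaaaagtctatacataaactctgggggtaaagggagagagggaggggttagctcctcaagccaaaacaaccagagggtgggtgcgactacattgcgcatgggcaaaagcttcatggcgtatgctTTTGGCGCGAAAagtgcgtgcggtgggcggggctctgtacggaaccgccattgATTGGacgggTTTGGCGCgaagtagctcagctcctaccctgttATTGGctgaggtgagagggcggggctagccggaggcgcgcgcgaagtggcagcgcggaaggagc
Cdt1: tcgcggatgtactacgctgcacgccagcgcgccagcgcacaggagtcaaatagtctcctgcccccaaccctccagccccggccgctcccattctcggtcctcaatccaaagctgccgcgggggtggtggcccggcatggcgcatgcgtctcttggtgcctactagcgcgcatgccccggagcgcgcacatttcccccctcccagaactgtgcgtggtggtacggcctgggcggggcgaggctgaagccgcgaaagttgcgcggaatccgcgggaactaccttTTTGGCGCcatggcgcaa
The Ccnb2 window held 2 CHR elements and 3 CCAAT boxes and no E2F site. The Cdk1 window held 2 CHR elements, 3 CCAAT boxes and 1 E2F site. The Mcm6 window held 3 E2F sites, of which 2 overlap on opposite strands, and 2 CCAAT boxes, and the Cdt1 window 1 E2F site that begins 33 bases into the transcript.

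A promoter window was found for 35 of the 45 genes. CHR letters stood in 13 of 17 mitotic and 2 of 13 replication genes, against 21.7% of the 27025 genes with a window. E2F letters stood in 1 of 17 mitotic and 6 of 13 replication genes, against 3.18% of all. CCAAT letters stood in 16 of 17 mitotic and 8 of 13 replication genes, against 41.1% of all. Among 22 other mitotic factors with a window (such as Nusap1, Prc1 and Cenpa) 15 held CHR letters and 2 held E2F letters, and among 22 other replication factors (such as Mcm10, Cdc45 and Uhrf1) 4 and 10 did. A match of letters is a description of the window and shows no binding.

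**Figure D1:**
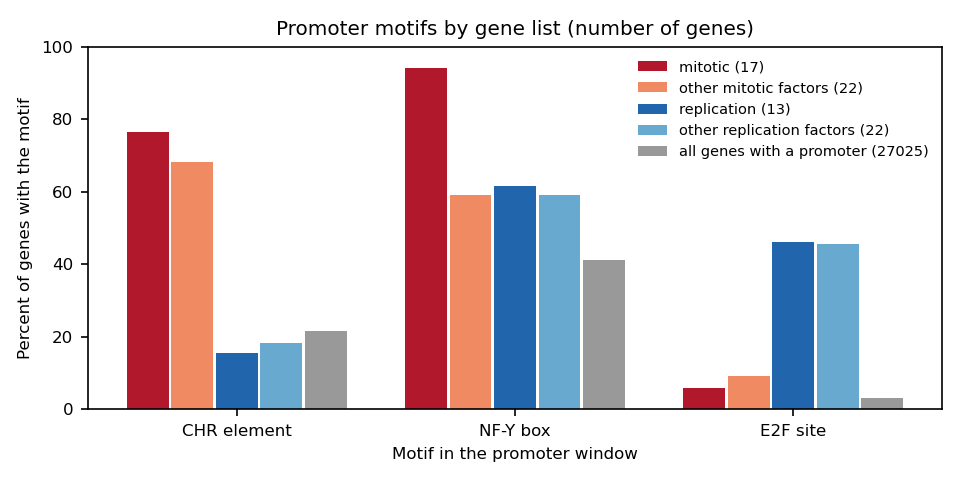
Percent of genes (vertical axis) whose promoter window holds each motif, for the mitotic and replication lists, the 2 lists of other factors and all 27025 genes with a window. The CHR element stands in 76.5% of the mitotic and 15.4% of the replication genes, and the E2F site in 5.88% and 46.2%.

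The mitotic genes carry the cell from G2 to division. Across their 21 group sums, levels in TU_HEV were lower than in TU_EC for most members and higher than in LN_HEV for most. In TU_HEV against TU_EC, 0 of 21 were higher by 2-fold or more and 11 lower, beside 25.7% and 13.1% of the 13979 features at 1 CPM or more in either group. The median log2 ratio was -1.03, against 0.40 over all features, and ran from -2.20 to 0.05 over the 8 pairs of plates. In TU_HEV against LN_HEV, 11 were higher and 2 lower, beside 27.1% and 15.2% of 14137 features. The median was 1.07, against 0.30 over all features, with plate pairs from 0.10 to 5.94. In TU_EC against LN_HEV, 18 were higher and 0 lower, beside 20.6% and 21.9% of 13992 features, and the median was 1.97, against -0.13, with plate pairs from -0.03 to 7.71. Of the 21 genes 1 was at least 2-fold lower and 0 higher in TU_HEV than in TU_EC in every pair of plates, beside 3.23% and 6.09% of all features, 2 were higher and 0 lower in TU_HEV than in LN_HEV (11.3% and 6.8%), and 3 were higher and 0 lower in TU_EC than in LN_HEV (8.29% and 7.44%). The comparisons share their groups.

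The all-feature median depends on the scaling. With size factors it moved to -0.04 in TU_HEV against TU_EC and 0.01 in TU_HEV against LN_HEV, and the share of higher among all features called went to 47.7% and 52.9%, against 66.3% and 64.1% with totals. The mitotic medians were then -1.46 and 0.79, with 17 genes lower in TU_HEV than in TU_EC and 8 higher in TU_HEV than in LN_HEV. Of all features, 2528 of 13979 were then lower in TU_HEV than in TU_EC, and 3051 of 14137 higher in TU_HEV than in LN_HEV. In these sums, fewer dividing cells and less RNA of a gene per cell cannot be told apart.

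**Figure D2:**
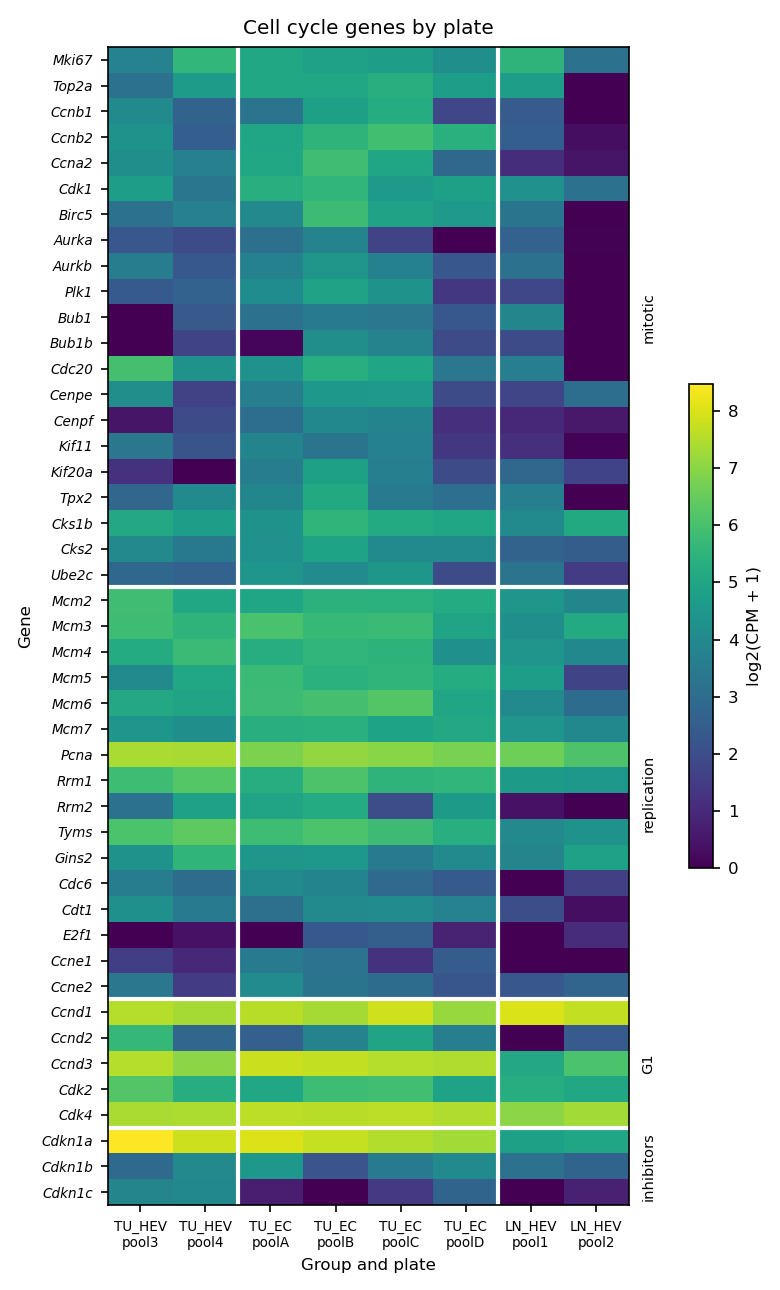
Level of each of the 45 genes as log2(CPM + 1) (colour) in each plate, with the TU_HEV plates left, the TU_EC plates in the middle and the LN_HEV plates right. Most mitotic genes are at or near 0 in pool2, and Pcna, Ccnd1, Ccnd3, Cdk4 and, in the tumour plates, Cdkn1a have the brightest colours.

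Ccna2, the cyclin of S and G2 phase (chromosome 3, 36564865 to 36572150, GRCm38), had 17.8 and 12.0 CPM in the TU_HEV plates pool3 and pool4, 32.6, 58.1, 30.6 and 6.34 CPM in the TU_EC plates poolA to poolD, and 1.15 and 0.397 CPM in the LN_HEV plates pool1 and pool2. Every tumour plate stood above both lymph node plates. The group sums were 20.7-fold higher in TU_HEV than in LN_HEV (95% counting interval 17.0 to 25.5) and 47.2-fold higher in TU_EC than in LN_HEV (38.8 to 58.0). Its exons overlap Exosc9 on the other strand over 12.5% of their bases, and the strand setting is not given in the sources used here. With the 11 libraries kept, the folds were 7.36 and 16.8, and without the top cell of each group 45.0 and 111.01.

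Ccnb2 had 18.9 and 4.80 CPM in the TU_HEV plates, 30.7, 44.5, 59.3 and 40.2 CPM in the TU_EC plates, and 4.78 and 0.245 CPM in the LN_HEV plates. The TU_EC plates stood above all others, and pool4 of TU_HEV was level with pool1 of LN_HEV. TU_EC was 21.3-fold above LN_HEV (19.0 to 24.0). The pool1 level rests on 1 cell, which held 93% of the LN_HEV counts, and without the top cell of each group the fold was 252.8. Cks2, a small subunit of cyclin-dependent kinase complexes, was 3.95-fold higher in TU_EC than in LN_HEV (3.65 to 4.28), and all 4 TU_EC plates (15.1 to 29.4 CPM) were above both LN_HEV plates (5.51 and 4.68 CPM).

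Kif20a, a kinesin of cytokinesis, was the mitotic gene at least 2-fold lower in TU_HEV than in TU_EC in every pair of plates. It had 1.30 and 0 CPM in the TU_HEV plates, against 10.7, 26.9, 11.6 and 2.86 CPM in the TU_EC plates, and the log2 ratio was -4.57. One of its 3 TU_HEV cells with a count held 82.1% of the counts. None of its TU_HEV counts came from the 6 cells with many mitotic genes described below, and without such cells in either group the log2 ratio was 0.47. Its exons overlap Cdc23 on the other strand over 29.3% of their bases.

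Cdk1 had 16.3, 34.1 and 12.3 CPM in TU_HEV, TU_EC and LN_HEV, and Birc5 (survivin), which guides chromosomes at the centromere, had 10.2, 31.3 and 3.62 CPM. Plk1 and Aurkb, kinases of mitotic entry and chromosome alignment, had 4.88, 17.1 and 0.999 CPM and 6.94, 12.9 and 3.30 CPM. These 4 genes had their highest group sum in TU_EC. The plates of TU_HEV and TU_EC did not overlap for Birc5, but did for Cdk1, Plk1 and Aurkb. Plk1 had 1.58 CPM in poolD of TU_EC, against 4.23 and 5.39 CPM in the TU_HEV plates. Ccnb1, cyclin B1, had 9.88, 20.1 and 1.77 CPM, and Kif11, the motor that separates the spindle poles, had 6.09, 8.97 and 0.548 CPM in TU_HEV, TU_EC and LN_HEV. Aurka, Bub1b, Cenpe, Tpx2 and Ube2c, which act on the spindle, its checkpoint and mitotic exit, lay between 1.31 and 11.2 CPM in TU_HEV, 5.98 and 17.2 CPM in TU_EC and 1.17 and 5.40 CPM in LN_HEV. The 7 genes of the last 2 sentences all had their highest group sum in TU_EC, but the plates of TU_HEV and TU_EC overlapped for each. Bub1, a kinase of the spindle checkpoint, had 0 and 4.21 CPM in the TU_HEV plates, 4.08 to 10.2 CPM in the TU_EC plates, and 13.7 and 0 CPM in the LN_HEV plates, so the plates of the groups overlapped. Bub1 and Kif20a were the 2 mitotic genes at least 2-fold lower in TU_HEV than in LN_HEV.

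Mki67, the proliferation antigen Ki-67, differed by less than 2-fold between the group sums, with 32.3 CPM in TU_HEV, 26.1 CPM in TU_EC and 22.9 CPM in LN_HEV. A single LN_HEV cell held 72.8% of its counts there. Cdc20, an activator of the anaphase-promoting complex, had 61.9 and 19.4 CPM in the TU_HEV plates, 9.34 to 38.5 CPM in the TU_EC plates, and 11.2 and 0 CPM in the LN_HEV plates. Top2a, the topoisomerase of chromosome condensation, had 8.01 and 24.1 CPM in the TU_HEV plates, 26.0 to 38.6 CPM in the TU_EC plates, and 25.6 and 0 CPM in the LN_HEV plates, so pool1 of LN_HEV lay within the range of the tumour plates. Cks1b, a close relative of Cks2, was also within 2-fold, with 28.8, 33.1 and 26.6 CPM in TU_HEV, TU_EC and LN_HEV.

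These sums rest on few cells. Each cell was thinned to 100000 counts, and a gene was called detected with at least 1 thinned count. In all, 3 TU_EC cells and 1 LN_HEV cell were too shallow. Cells with 5 or more of the 21 mitotic genes, called mitotic-gene cells here, were 6 of 98 in TU_HEV (6.12%, exact 95% interval 2.28 to 12.9%), 32 of 300 in TU_EC (10.7%, 7.41 to 14.7%) and 1 cell in LN_HEV (0.704%, 0.0178 to 3.86%). By plate they were 4 of 50 and 2 of 48 in TU_HEV, 7 of 67, 12 of 79, 7 of 82 and 6 of 72 in TU_EC, and 1 of 62 and 0 of 80 in LN_HEV. All 6 tumour plates held such cells. The intervals of TU_HEV and TU_EC overlap, as do those of TU_HEV and LN_HEV. They cover counting error only and treat cells as independent, so comparing them is no test between groups, each of which is 1 sample.

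The cut is a range and not a cell type. With 3 or 4 mitotic genes there were 3, 10 and 2 cells in TU_HEV, TU_EC and LN_HEV, with 5 or 6 there were 2, 4 and 0, and with 10 or more 4, 19 and 1. Cells with 5 or more replication genes but under 5 mitotic genes, called replication-gene cells, were 3 of 98 in TU_HEV (3.06%, 0.636 to 8.69%), 14 of 300 in TU_EC (4.67%, 2.57 to 7.71%) and 1 cell in LN_HEV (0.704%, 0.0178 to 3.86%). The mitotic-gene cells mostly carried replication genes too, 5 of 6 in TU_HEV, 25 of 32 in TU_EC and 1 of 1 in LN_HEV with 5 or more. In TU_EC 7 cells held 7 to 21 mitotic genes with under 5 replication genes, and 1 TU_HEV cell held 11 mitotic and 3 replication genes.

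**Figure D3:**
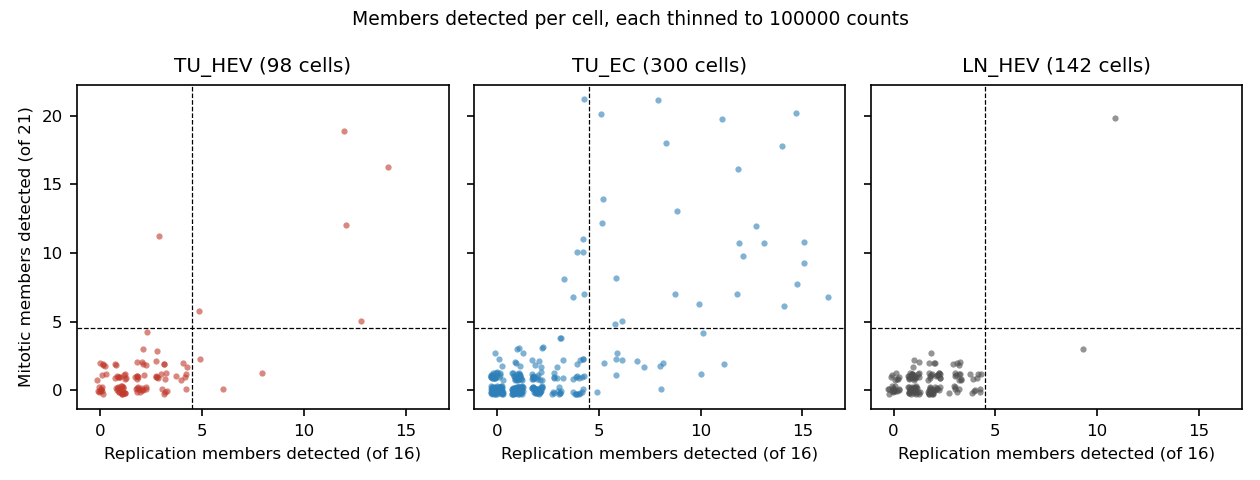
Number of mitotic genes (of 21, vertical) against replication genes (of 16, horizontal) detected in each cell after thinning to 100000 counts, 1 point a cell with a small random shift, in TU_HEV, TU_EC and LN_HEV; dashed lines mark the cut of 5. Above the horizontal line lie 6 of 98 cells in TU_HEV, 32 of 300 in TU_EC and 1 in LN_HEV.

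In their medians, these cells also differed in measures that the cut did not use, but not every cell did. Of 26 other mitotic factors, the mitotic-gene cells of TU_HEV, TU_EC and LN_HEV had a median of 9, 10.5 and 20, and the other cells (in neither class) 1, 0 and 1. The mitotic-gene cells ranged from 1 to 23 in TU_HEV and from 2 to 24 in TU_EC, against 0 to 3 in the other cells of each. The TU_HEV cells with 5 and 6 mitotic genes held 1 and 2 of these factors, within the range of the other cells. Of 26 other replication factors the medians were 14, 11.5 and 17 in mitotic-gene cells and 1, 1 and 2 in the other cells. The replication-gene cells had medians of 1 in TU_HEV and 4 in TU_EC, and the 1 such cell of LN_HEV had 14. In TU_HEV other replication factors therefore did not set the replication-gene cells apart in the median. The mitotic-gene cells also had more genes with a count before thinning, with medians of 4907, 4710 and 5851 against 3667, 3092 and 3896 in the other cells, and their median totals were 1651528, 998301 and 1463708 counts against 1381152, 602310 and 1059963. The part of depth and of detected genes in the cut beyond thinning was not tested.

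All kept cells had passed a filter on pan-endothelial, leukocyte, epithelial, and mural and fibroblast markers. The endothelial identity of the mitotic-gene cells was therefore fixed in part beforehand. The filter left out 3 TU_EC cells that passed the mitotic-gene cut, which are given with the flagged results below. The mitotic-gene cells that were kept carried the markers of their own gates. All leukocyte and epithelial markers were at 0 in all of them, and the mural and fibroblast markers reached 10 CPM in none. Single marker genes named for these cells were picked after their values were seen. Chst4 reached 10 CPM in 6 of 6 mitotic-gene cells of TU_HEV, against 34 of 89 other TU_HEV cells. Its summed level was 267.5 CPM against 204.4 CPM. Glycam1, another gene of the HEV list, ran the other way, at 10 CPM in 1 of 6 against 18 of 89 cells. The summed level of Glycam1 was 6.11 CPM in mitotic-gene cells against 141.8 CPM in the others. Selp, the venous adhesion molecule P-selectin, reached 10 CPM in 6 of 6 against 65 of 89. The summed level of Selp was lower, 1126 CPM in mitotic-gene cells against 2833 CPM in the others. Ackr1, a chemokine receptor of venules, had 643.2 CPM against 2609 CPM. Of the marker lists in TU_HEV, the HEV sum was about level, 350.03 CPM in mitotic-gene cells against 353.4 CPM in the others. The venous sum was 1906 against 6716 CPM, the capillary sum 2927 against 4089 CPM, the tip sum 593.7 against 739.99 CPM, the arterial sum 6.80 against 290.6 CPM and the lymphatic sum 33.4 against 35.7 CPM.

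In TU_EC, Apln, a ligand of sprouting tip cells, had 605.6 CPM in mitotic-gene cells against 346.4 CPM in the other cells, while Esm1, another tip cell gene, had 17.9 against 220.3 CPM. All 5 summed marker lists of vessel types were lower in the mitotic-gene cells of TU_EC. The tip sum was 1635 against 2516 CPM, the capillary sum 1335 against 2566 CPM, the venous sum 305.8 against 757.5 CPM, the arterial sum 100.1 against 725.96 CPM and the lymphatic sum 173.7 against 437.4 CPM.

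The LN_HEV mitotic-gene cell was a single pool1 library with 20 of 21 mitotic and 11 of 16 replication genes. It had 36911 CPM of Glycam1 and 422 CPM of Chst4, and all leukocyte, epithelial, mural and fibroblast markers were at 0. It held all LN_HEV counts of Ccnb1, Aurkb, Plk1, Bub1, Bub1b and Tpx2, which act in mitotic entry, the spindle and its checkpoint, and of Rrm2. Over the 21 mitotic genes its median share of the LN_HEV counts was 72.8%. Without it, the mitotic medians were 3.32 in TU_HEV against LN_HEV and 4.83 in TU_EC against LN_HEV. In the tumour groups the mitotic-gene cells held a median of 83.2% (TU_HEV) and 96.8% (TU_EC) of the counts of the mitotic genes. These shares follow in part from the way the cells were chosen.

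**Figure D4:**
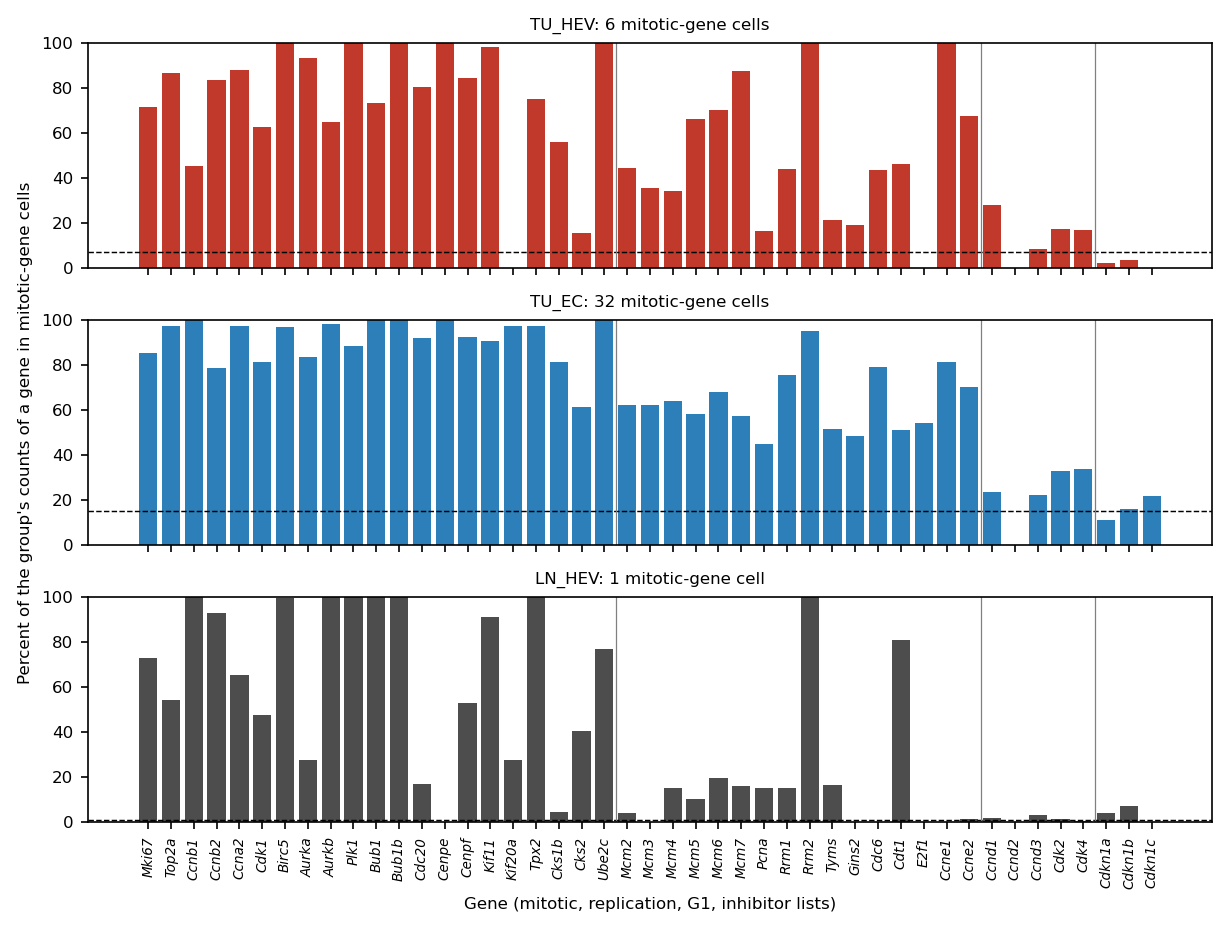
Percent of the counts of each gene in a group that came from its mitotic-gene cells (bars), in TU_HEV, TU_EC and LN_HEV; the dashed line is the share of all counts of the group in those cells, and vertical lines part the mitotic, replication, G1 and inhibitor lists. Mitotic genes have a median of 83.2%, 96.8% and 72.8%, replication genes 44.2%, 62.1% and 15.0%.

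The mitotic-gene cells were chosen by the same genes, so levels without them are a description and set no order of the groups. Over the 15 of 21 genes still at 1 CPM in a group, the median log2 ratio without them was 0.75 in TU_HEV against TU_EC, 0.65 in TU_HEV against LN_HEV and -0.47 in TU_EC against LN_HEV, beside 0.44, 0.27 and -0.18 over all features. The genes went both ways, with 6 higher and 5 lower, 7 higher and 4 lower, and 6 higher and 5 lower. In the same order, 3799 were higher and 1909 lower of all 13925 features, 3799 and 2246 of 14066, and 2811 and 3282 of 13920. Outside these cells Cks2 had 11.3 CPM in other TU_HEV cells, 9.16 CPM in other TU_EC cells and 3.03 CPM in other LN_HEV cells, while Cks1b had 12.9, 5.05 and 25.4 CPM. With any count taken as detection, Cenpf, a kinetochore protein, was found in 12.2%, 10.6% and 11.2% of TU_HEV, TU_EC and LN_HEV cells before thinning, with a median of 2.5, 7 and 1.5 counts in those cells.

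Most replication genes were at least 2-fold higher in the group sums of each tumour gate than in those of lymph node. The share of thinned cells in which a gene was detected differed less between the HEV groups. Its median over the list was 9.18% in TU_HEV, 15% in TU_EC and 8.45% in LN_HEV. In TU_HEV against LN_HEV 11 of 15 tested genes were at least 2-fold higher and 0 lower, beside 27.1% and 15.2% of all features, with a median log2 ratio of 1.44 against 0.30 over all features and plate pairs from 1.25 to 1.77. In TU_EC against LN_HEV 12 of 16 were higher and 0 lower, beside 20.6% and 21.9%, with a median of 1.42 against -0.13 and plate pairs from 0.89 to 1.73. In each comparison 6 genes were at least 2-fold higher in every pair of plates, beside 11.3% and 8.29% of all features. The genes that did not reach 2-fold include Ccne2, which was level between TU_HEV and LN_HEV, and Gins2, which was lower in TU_EC than in LN_HEV. In TU_HEV against TU_EC 1 was higher and 2 lower, beside 25.7% and 13.1%, and the median was -0.08 against 0.40, with plate pairs from -0.37 to 0.41. With size factors this median was -0.51, with 6 genes lower, beside -0.04 and 2528 of 13979 over all features.

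Rrm2, the regulated subunit of ribonucleotide reductase (chromosome 12, 24708241 to 24714146), had 7.95 and 28.1 CPM in the TU_HEV plates, 29.9, 35.8, 3.04 and 23.3 CPM in the TU_EC plates, and 0.342 and 0 CPM in the LN_HEV plates. Its 20 LN_HEV counts all lay in the mitotic-gene cell, and the group sums were 138.3-fold higher in TU_HEV (89.4 to 226.8) and 164.2-fold higher in TU_EC (106.2 to 269.1). Only 3 TU_HEV cells held a count, all of them mitotic-gene cells, against 21 TU_EC cells and 1 LN_HEV cell. Outside the mitotic-gene cells neither HEV group held a count of it, and the other TU_EC cells had 0.727 CPM. Without the top cell of each group LN_HEV had no count, and the ratios to a floor of 3 counts were 389.9 and 973.9.

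Tyms, thymidylate synthase, was spread over more cells. It had 66.3 and 81.6 CPM in the TU_HEV plates, 56.0, 66.7, 55.7 and 39.3 CPM in the TU_EC plates, and 14.8 and 19.5 CPM in the LN_HEV plates. All tumour plates stood above both lymph node plates, and the sums were 4.25-fold (4.07 to 4.44) and 3.13-fold (3.00 to 3.27) higher in TU_HEV and TU_EC than in LN_HEV. After thinning it was detected in 41.8%, 29.0% and 15.5% of TU_HEV, TU_EC and LN_HEV cells. In the other cells, those in neither class, it had 54.9, 24.0 and 14.5 CPM.

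Cdt1 had 18.0 and 10.1 CPM in the TU_HEV plates, 7.72, 15.8, 16.1 and 12.6 CPM in the TU_EC plates, and 3.08 and 0.245 CPM in the LN_HEV plates, a 9.73-fold and a 9.55-fold higher sum in TU_HEV and TU_EC. The mitotic-gene cell held 80.6% of its LN_HEV counts, and without the top cell of each group the folds were 31.6 and 43.0. Mcm6 had 34.0 and 29.9 CPM in the TU_HEV plates, 55.0, 61.4, 73.0 and 30.8 CPM in the TU_EC plates, and 15.4 and 7.05 CPM in the LN_HEV plates. Its sum was 5.38-fold higher in TU_EC than in LN_HEV (5.10 to 5.68) and 3.04-fold higher in TU_HEV than in LN_HEV, where 1 plate pair fell under 2-fold. Rrm1, the large subunit that pairs with Rrm2, had 56.1 and 74.4 CPM in the TU_HEV plates and 23.6 and 21.9 CPM in the LN_HEV plates, a 2.93-fold difference (2.82 to 3.05), and the TU_EC plates lay between 37.5 and 68.1 CPM.

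The helicase subunits differed among themselves in group sums. Mcm2, Mcm3 and Mcm4 were as high in TU_HEV as in TU_EC or higher (43.7 against 38.5, 49.9 against 49.8 and 46.3 against 37.3 CPM in TU_HEV against TU_EC), while Mcm5, Mcm6 and Mcm7 were lower in TU_HEV (25.4 against 44.6, 31.7 against 56.1 and 19.2 against 35.7 CPM), in each case by less than 2-fold. Plate pairs went both ways for Mcm2, Mcm3, Mcm4 and Mcm6, and 1 way for Mcm5 and Mcm7. Without the top cell of each group, the folds of TU_HEV over TU_EC were 0.96, 0.93 and 1.09 for Mcm2, Mcm3 and Mcm4. They were 0.46, 0.49 and 0.35 for Mcm5, Mcm6 and Mcm7. All 6 log2 ratios of the full group sums, of which the highest was 0.31 for Mcm4, lay under the all-feature median of 0.40. Pcna, the sliding clamp, was the highest replication gene per kilobase of exon in every group, with 68.8, 50.2 and 33.2 CPM per kb in TU_HEV, TU_EC and LN_HEV. Its summed level was 165.2 CPM in TU_HEV, 120.6 CPM in TU_EC and 79.8 CPM in LN_HEV, and it was detected in 49.0%, 46.0% and 44.4% of thinned cells. Gins2, a subunit of the helicase complex, had 34.2 CPM in TU_HEV, 17.1 CPM in TU_EC and 22.3 CPM in LN_HEV, but 67.3% of its exon bases overlap Gse1 on the other strand. Ccne1, cyclin E1, had 0 LN_HEV counts and levels of 1.41 CPM in TU_HEV and 5.98 CPM in TU_EC. The ratio to a floor of 3 counts over LN_HEV was 67.7 in TU_HEV and 287.2 in TU_EC, and the exact 95% counting intervals from the 0 counts begin at 54.5-fold and 233.2-fold. The TU_HEV counts lay in 2 cells, of which 1 held 61.7%, and without the top cell the ratio to the floor was 25.9. Cdc6, which loads the helicase with Cdt1, had 8.75, 9.78 and 1.21 CPM, and Ccne2, cyclin E2, 5.05, 8.73 and 5.02 CPM in TU_HEV, TU_EC and LN_HEV. E2f1 was sparse, with 0.185, 2.63 and 0.673 CPM in TU_HEV, TU_EC and LN_HEV, and was under 1 CPM in both groups of the HEV comparison.

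Of the replication counts, less came from mitotic-gene cells. Their median share over the list was 44.2% in TU_HEV, 62.1% in TU_EC and 15.0% in LN_HEV, where Ccne1 had no count. Without these cells the medians were 0.67 in TU_HEV against LN_HEV and 0.66 in TU_EC against LN_HEV, beside 0.27 and -0.18 over all features. Then 6 were higher and 2 lower of 13 tested in TU_HEV against LN_HEV, beside 3799 and 2246 of 14066 features. In TU_EC against LN_HEV 7 were higher and 1 lower of 16, beside 2811 and 3282 of 13920 features. As a description across cells, with all genes of a cell sharing its library and depth, the median Pearson r between pairs of mitotic genes was 0.42 in TU_HEV (98 cells) and 0.53 in TU_EC (300 cells). Between pairs of replication genes it was 0.27 and 0.37, and between mitotic and replication genes 0.24 and 0.27. No value is given for LN_HEV, where 1 cell held all counts of 6 mitotic genes.

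Per kilobase of exon, Ccnd1 and Cdk4 stood near the top of the 45 genes in every group, with 36.2 and 52.5 CPM per kb in TU_HEV, 38.7 and 58.5 in TU_EC, and 48.0 and 44.6 in LN_HEV. The D-type cyclins differed in which gate was highest. Of the 5 genes, 2 were at least 2-fold higher in TU_HEV than in LN_HEV and 2 in TU_EC than in LN_HEV, with none lower, beside 27.1% and 20.6% of all features, so both counts lie within 1 gene of that share. None passed 2-fold between TU_HEV and TU_EC.

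Ccnd3, cyclin D3 (chromosome 17, 47505051 to 47599691), had 183.7 and 127.9 CPM in the TU_HEV plates, 223.9, 204.96, 185.02 and 177.7 CPM in the TU_EC plates, and 33.5 and 66.0 CPM in the LN_HEV plates. All tumour plates stood above both lymph node plates. TU_EC was 3.74-fold above LN_HEV (3.65 to 3.84) and TU_HEV 2.89-fold (2.81 to 2.96), where 1 plate pair was at 1.94-fold. Ccnd1, cyclin D1, ran the other way by less than 2-fold, with 170.6 CPM in TU_HEV, 182.01 CPM in TU_EC and 225.9 CPM in LN_HEV, and its exons overlap LTO1 on the other strand over 23.4% of their bases. Cells with Ccnd1 but not Ccnd3 at 10 CPM were 25.5% in TU_HEV, 15% in TU_EC and 51.4% in LN_HEV, and cells with Ccnd3 but not Ccnd1 were 25.5%, 20% and 7.04%. Both were found in 25.5%, 36% and 23.2% of cells.

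Ccnd2, cyclin D2, had 49.2 and 5.94 CPM in the TU_HEV plates, 5.06 to 30.1 CPM in the TU_EC plates, and 0 and 4.35 CPM in the LN_HEV plates, where 1 cell held all counts. Its sum was 25.0 CPM in TU_HEV and 15.3 CPM in TU_EC. In mitotic-gene cells it was 0.296 CPM in TU_HEV and 0 in TU_EC, against 27.9 and 16.8 CPM in the other cells. Ccnd2 reached 10 CPM in only 9.18% of TU_HEV cells and 7.26% of TU_EC cells, and 1 TU_HEV cell held 34.1% of its counts there. With 6 mitotic-gene cells in TU_HEV and 32 in TU_EC, little can be read from its low level in them. Ccnd1 and Cdk4 were higher in the mitotic-gene cells of both tumour gates. Ccnd1 had 684 CPM in mitotic-gene cells of TU_HEV against 130 CPM in the other cells, and 283.2 against 136.9 CPM in TU_EC. Cdk4, the kinase that D-type cyclins activate, had 412.3 against 148.3 CPM in TU_HEV and 424.2 against 132.3 CPM in TU_EC. Cdk4 and Cdk2, the partner of cyclins E and A, differed by under 2-fold between group sums, with 170.6, 190.2 and 144.9 CPM of Cdk4 and 53.7, 45.1 and 34.8 CPM of Cdk2 in TU_HEV, TU_EC and LN_HEV.

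**Figure D5:**
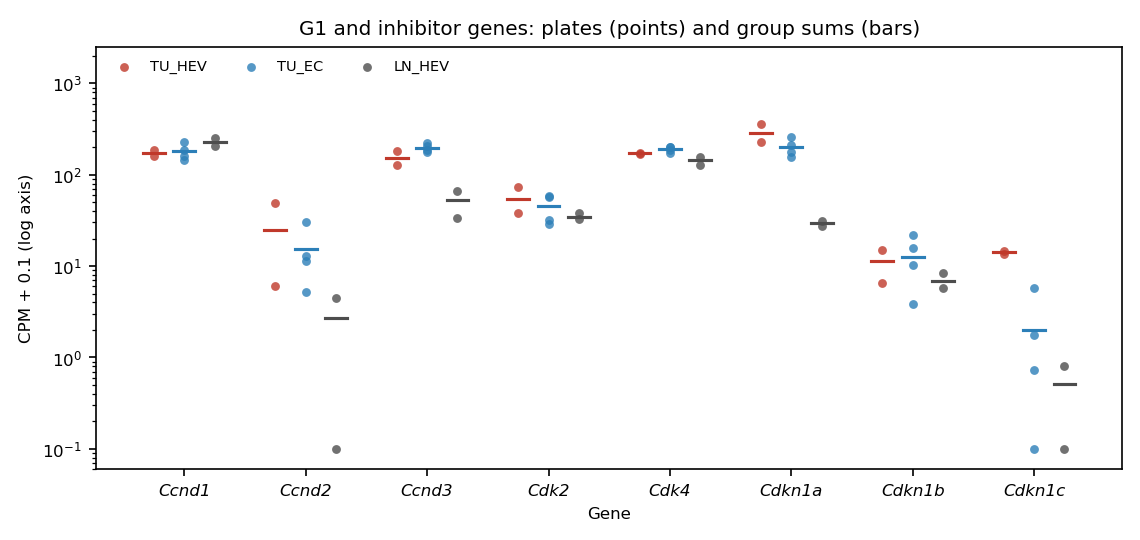
Level of the 5 G1 and 3 inhibitor genes as CPM + 0.1 on a log axis, in each plate (points) and as the group sum (bars), in TU_HEV (red), TU_EC (blue) and LN_HEV (grey). The 6 tumour plates of Cdkn1a lie between 157.4 and 355.2 CPM, above the LN_HEV plates at 27.4 and 31.2 CPM.

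Of the 3 inhibitors, 2 were at least 2-fold higher in each tumour gate than in LN_HEV and none lower. Over all features 27.1% were higher and 15.2% lower in TU_HEV than in LN_HEV, and 20.6% and 21.9% in TU_EC than in LN_HEV. With 3 genes these counts are too small to set the list apart. Cdkn1a (chromosome 17, 29090976 to 29100727), a target of p53, had 355.2 and 228.4 CPM in the TU_HEV plates, 260.4, 213.9, 179.1 and 157.4 CPM in the TU_EC plates, and 27.4 and 31.2 CPM in the LN_HEV plates. The lowest tumour plate was 5.04-fold above the highest lymph node plate. The sums were 9.59-fold (9.29 to 9.89) and 6.81-fold (6.60 to 7.03) higher in TU_HEV and TU_EC than in LN_HEV. It reached 10 CPM in 54.1%, 64.0% and 19.6% of TU_HEV, TU_EC and LN_HEV cells, so the difference lay in many cells. With the 11 left-out libraries kept, the folds were 4.36 and 3.10.

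In the tumour gates the summed level of Cdkn1a was lower in mitotic-gene cells. It was 90.9 CPM against 291.6 CPM in other TU_HEV cells and 149.9 CPM against 221.8 CPM in other TU_EC cells. Across all thinned cells, the Pearson r of Cdkn1a with the summed mitotic genes was near 0, at -0.02 in TU_HEV and 0.05 in TU_EC. The LN_HEV mitotic-gene cell had 125.7 CPM, against 27.4 CPM in the other LN_HEV cells. The 3 replication-gene cells of TU_HEV had 494.8 CPM and the 14 of TU_EC 78.8 CPM, so the tumour gates did not share an order there. Those 3 cells were not set apart by other replication factors in the median. Of other inhibitors and p53-linked genes, Trp53 had 169.5, 143.6 and 164.4 CPM and Mdm2, a target of p53 that degrades it, 52.7, 48.8 and 29.1 CPM in TU_HEV, TU_EC and LN_HEV. Cdkn2b, the inhibitor p15, had 3.00, 21.3 and 0.548 CPM, and Cdkn2c, the inhibitor p18, had 8.86, 4.87 and 27.6 CPM. Of this list of 10 genes 9 were tested in each comparison, and 1 was higher and 2 lower in TU_HEV than in TU_EC, 4 and 1 in TU_HEV than in LN_HEV, and 3 and 1 in TU_EC than in LN_HEV. Beside 25.7% and 13.1%, 27.1% and 15.2%, and 20.6% and 21.9% of all features, these counts are too small to set the list apart.

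Cdkn1c had 13.5 and 14.6 CPM in the TU_HEV plates, 0.635, 0, 1.64 and 5.67 CPM in the TU_EC plates, and 0 and 0.700 CPM in the LN_HEV plates. Both TU_HEV plates stood above all other plates. It was 7.48-fold higher in TU_HEV than in TU_EC (6.73 to 8.33) and 33.9-fold higher than in LN_HEV (26.2 to 44.5). Cdkn1c was the 1 gene of the 45 at least 2-fold higher in TU_HEV than in TU_EC in every pair of plates. Of all features 6.09% were, so 1 of 45 is not above that share. Its counts came from 6 TU_HEV cells, of which 1 held 42.1%. None was a mitotic-gene cell, from which little can be read with 6 of 98 cells in each set. Its exons overlap Gm44732 on the other strand over 30.7% of their bases, and with the 11 libraries kept the fold over LN_HEV was 2.32, and without the top cell of each group 97.97. Cdkn1b had 11.1, 12.3 and 6.68 CPM in TU_HEV, TU_EC and LN_HEV, with plates from 3.75 to 22.1 CPM that overlapped across groups.

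Other cycle genes were counted in lists chosen by role. Of 26 other mitotic factors 1 was higher and 10 lower in TU_HEV than in TU_EC, 13 and 1 of 23 tested in TU_HEV than in LN_HEV, and 23 and 1 of 26 in TU_EC than in LN_HEV, with median log2 ratios of -0.64, 1.54 and 2.05. Of 26 other replication factors 1 was higher and 6 lower, 12 higher and 2 lower of 25, and 13 higher and 1 lower of 25, with medians of -0.10, 0.60 and 1.03. Of 12 tested Rb, E2F and DREAM genes 1 was higher and 3 lower, 3 higher and 1 lower, and 5 higher and 0 lower in the same 3 comparisons. Over all features the shares higher and lower were 25.7% and 13.1%, 27.1% and 15.2%, and 20.6% and 21.9%, so the 3 of 12 higher in TU_HEV than in LN_HEV lie near the share of all features. Uhrf1, which maintains DNA methylation at replication, had 17.8, 20.3 and 2.01 CPM, and E2f7, a repressing E2F factor, 17.9, 8.32 and 1.72 CPM in TU_HEV, TU_EC and LN_HEV. Both were at least 2-fold higher than in LN_HEV in every pair of plates for both tumour gates.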

How the data were processed

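Single cells were measured with Smart-seq2, with 23 PCR cycles and single reads of 75 bp, per the labels. The deposited values are read counts per gene, not normalized. Per the submitters' processing notes the tools included Subread 1.4.6-p2, STAR 2.4.1b and FastQC 0.11.4, and the build was mm10 (GRCm38). The strand setting is not given in the sources used here. PCR copies were not removed by identifiers, so intervals and floors cover counting error only.

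Rows with 1 symbol were summed. Cells kept had at least 50000 counts, 1000 genes, at most 30% mitochondrial counts, at least 2 of 5 pan-endothelial markers at 10 CPM and under 3 of 6 markers in each of 3 contaminant lists, and 11 pool1 libraries were dropped. No doublet caller was run. Counts were summed by group and plate, and called means at least 2-fold between group sums, over features at 1 CPM or more in either group. Ratios have exact conditional intervals at 95%, shares have Clopper-Pearson ones, and a floor is 3 counts. Plates are not replicates, and the labels name no animal, so no test was made. Genes were named with plate values where they had at least 10 CPM in the higher group and 2-fold in every pair of plates, up to 10 per comparison by size, along with all 8 G1 and inhibitor genes. Other members are named to account for the list, and other genes were picked with their values seen. The members and lists were chosen with earlier results of these data known. Code was tested on simulated data. Positions are from GENCODE M21. Tools were Python 3.11.15, numpy 2.4.6, pandas 2.3.3, scipy 1.17.1 and matplotlib 3.10.9.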

Additional observations from a re-analysis of the deposited data

Results flagged for a closer look

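Signal lay in libraries outside the comparisons. Of the 11 pool1 libraries left out, 2 (18.18%, exact 95% interval 2.28 to 51.8%) had 5 or more replication genes and under 5 mitotic genes. These 11 held the counts of 19 TU_HEV libraries, so the genes detected may come from more than 1 cell, and the interval treats each library as 1 cell. Of the 6 TU_EC cells left out by the cell type rule, 3 (50%, 11.8 to 88.2%) had 5 or more mitotic genes. These 3 cells had 15, 20 and 8 of the 21 mitotic genes and 1 pan-endothelial marker each at 10 CPM. Of these, 2 had 4 of the 6 mural and fibroblast markers.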

How the results depend on the processing

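No paired analysis was possible because the labels give no replicate numbers shared between groups. Without the cells that had 5 or more mitotic genes, chosen after seeing the data and by the same genes, the mitotic median reversed to 0.75 in TU_HEV against TU_EC and -0.47 in TU_EC against LN_HEV, Kif20a in TU_HEV against TU_EC reversed to 0.47, and the replication medians were 0.67 and 0.66 in TU_HEV and TU_EC against LN_HEV. With the 11 libraries kept, Cdkn1c in TU_EC against LN_HEV reversed to -1.69. Without the top cell of each gene the mitotic medians were 2.98 and 4.29 in TU_HEV and TU_EC against LN_HEV, and without the LN_HEV mitotic-gene cell, also chosen later, 3.32 and 4.83. Leaving out 1 plate at a time they ran from 0.20 to 5.49 and from 1.17 to 7.42. With a cut of 3 genes the replication-gene shares were 24.5%, 15.3% and 19.7% in TU_HEV, TU_EC and LN_HEV. Leaving out 1 plate, the LN_HEV shares of mitotic-gene and replication-gene cells ran from 0 to 1.61%, with 0 for both without pool1. With size factors 17 of the 21 mitotic and 6 of the 16 replication genes were lower in TU_HEV than in TU_EC, against 11 and 2 with totals. Of all 13979 features 2528 were lower with size factors and 1828 with totals. The causes were not tested. Without S26, S29 and S33, added later, Ccna2 and Cdkn1a in TU_HEV against LN_HEV were 4.36 and 3.25 on the log2 scale.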
